A study of Mus musculus with 33 samples.

Results

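The genes described here were 48 genes that encode lysosomal enzymes and membrane proteins, out of 24421 genes counted in each library. They were taken by gene symbol from a named list and fell into 13 proteases, 6 glycosidases, 6 enzymes that degrade glycosaminoglycans, 6 lipid hydrolases, 5 activators and lipid carriers, 6 membrane proteins, 5 subunits or accessory proteins of the vacuolar proton pump (V-ATPase) and the transcription factor Tfeb. All 48 symbols were present in every file. Their RNA was compared across Kupffer cells (KCs), the resident macrophages of the liver, and alveolar macrophages (AMs), the macrophages of the air spaces of the lung.

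Lysosomes are the acidic compartments in which cells break down material taken up from outside and worn-out components of their own. The V-ATPase pumps protons into the lumen, hydrolases that work at acid pH cut proteins, glycans and lipids there, and heavily glycosylated proteins such as LAMP1 and LAMP2 line the limiting membrane. Macrophages are rich in lysosomes. KCs take up particles and dying red cells from the blood, and AMs clear inhaled particles and surfactant.

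Bulk RNA sequencing covered 33 samples in 6 groups, and every mouse carried loxP-flanked alleles of Zeb2 (Zeb2 fl/fl), a gene for a zinc finger transcription factor. The liver gave 6 samples of KCs from Zeb2 fl/fl mice without a Cre transgene (CRE- KC) and 6 samples each of Tim4+ and Tim4- KCs whose Zeb2 fl/fl donors also carried Clec4f-cre (CRE+). The lung gave 5 samples of AMs from Zeb2 fl/fl mice (CRE- AM) and 5 samples each of CD11b- and CD11b+ AMs whose Zeb2 fl/fl donors also carried Itgax-cre (CRE+). By the study's methods the mice were 6 to 8 weeks old, animals without Cre were littermates, and 25000 cells were sorted per sample. The methods also give a C57Bl/6 background for all mice and both sexes in each experiment. The Clec4f-driven Cre also acts in a small population of B cells and the Itgax-driven Cre in other CD11c+ cells. The CRE+ samples were sorted by Tim4 or CD11b and not by deletion, so that a CRE+ sample can hold cells that kept an intact Zeb2 allele. Because each tissue had its own Cre line, a difference between the tissues in the effect of Cre and a difference between the Cre lines cannot be told apart.

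Zeb2 itself was measured at 230 to 338 CPM (gene counts scaled to library size and composition, the unit of all levels below) in CRE- KCs, with a median of 279. It was at 145 to 210 CPM in CRE+ Tim4+ KCs (median 165) and at 148 to 192 CPM in CRE+ Tim4- KCs (median 168). The CRE- AM samples gave 170, 185, 206, 208 and 208 CPM, the CRE+ CD11b- AMs 85.0, 106, 108, 113 and 114 CPM, and the CRE+ CD11b+ AMs 50.7, 60.2, 62.5, 68.7 and 70.2 CPM. Zeb2 was lower than in CRE- cells of the same tissue in all 4 CRE+ groups, without overlap of samples, by 0.71, 0.76, 0.89 and 1.66 on the log2 scale for Tim4+ KC, Tim4- KC, CD11b- AM and CD11b+ AM. Reads from exons outside the floxed region still count, so these values check the labels without measuring the share of cells with a deletion.

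Tfeb (chr17:47737030-47792419, plus strand, GRCm38) encodes a basic helix-loop-helix transcription factor known to activate many lysosomal genes through a DNA element with the core CACGTG. In CRE- KCs Tfeb ranged from 49.98 to 74.6 CPM with a median of 63.3. The CRE+ Tim4+ KCs ranged from 58.0 to 73.5 CPM (median 65.0) and the CRE+ Tim4- KCs from 41.3 to 76.9 CPM (median 75.5). The KC groups overlapped and Tfeb was not called in any comparison among them. In CRE- AMs it was at 125, 132, 132, 132 and 150 CPM, above every KC sample. In CRE+ CD11b- AMs it was at 82.9, 85.2, 88.6, 110 and 115 CPM and in CRE+ CD11b+ AMs at 80.2, 80.4, 84.7, 89.5 and 97.2 CPM, so that all 10 CRE+ AM samples lay below the 5 CRE- AM samples. The decrease was 0.48 ± 0.09 (log2, SE) in CD11b- AMs, adjusted p = 6.87e-04 (edgeR), and 0.65 ± 0.09 in CD11b+ AMs, adjusted p = 9.51e-06.

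The promoters of the lysosomal genes were searched for CACGTG, which reads the same on both strands. The windows ran from 250 bases before to 50 bases after the RefSeq transcription start (GRCm38.p6) and were at hand for 42 of the 48 genes. The motif was found in 15 of the 42 (35.7%), against 2187 of all 27025 genes with a window (8.09%) and 1172 of the 10135 genes that were also tested for expression (11.6%). Of the 15 genes with the motif, 10 were higher and 2 lower in CRE+ CD11b+ AMs than in CRE- AMs, and of the 27 without it 16 were higher and 7 lower. Over all genes tested, 22.2% of those with the motif were higher and 24.9% lower in that comparison, against 22.6% and 20.1% of those without it. In CRE+ CD11b- AMs against CRE- AMs 4 of the 15 were higher and 4 lower, and of the 27 it was 7 and 6. Over all genes tested, 12.8% and 14.1% of those with the motif were called higher and lower, against 13.2% and 12.2% of those without it. In CD11b+ against CD11b- AMs 12 of the 15 were higher and 1 lower, and of the 27 it was 14 and 3. The shares of all genes were 20.1% and 21.1% with the motif and 19.8% and 16.2% without it. In CRE+ Tim4- KCs against CRE- KCs it was 1 and 5 of the 15 and 2 and 7 of the 27. The shares of all genes were 11.1% and 10.4% with the motif and 12.1% and 13.1% without it. In Tim4+ against CRE- KCs it was 1 and 4 of the 15 and 1 and 3 of the 27. The shares were 3.78% and 2.43% with the motif and 3.54% and 2.49% without it. In Tim4- against Tim4+ KCs it was 0 and 1 of the 15 and 2 and 0 of the 27. The shares were 3.24% and 5.22% with the motif and 3.86% and 7.59% without it. In CRE- KCs against CRE- AMs it was 7 and 7 of the 15 and 9 and 14 of the 27. Here the shares were 27.7% and 35.4% with the motif and 33.1% and 29.7% without it. For the change in CRE+ KCs less that in CRE+ AMs it was 2 and 8 of the 15 and 6 and 11 of the 27. The shares were 11.9% and 8.45% with the motif and 9.76% and 9.56% without it. The stretches below are examples from the genes with the motif, 5′ to 3′ on the strand of the gene, with CACGTG in capitals.
Sgsh (chr11:119355522-119355551, minus strand, motif 29 bases before the start): gggcctgccgtgCACGTGaccgtggggagc
Lgmn (chr12:102439124-102439153, minus strand, motif 49 bases before the start): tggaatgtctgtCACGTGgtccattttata
Ctsd (chr7:142387908-142387937, minus strand, motif 98 bases before the start): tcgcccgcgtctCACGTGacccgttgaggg
Ctsf (chr19:4855074-4855103, plus strand, motif 79 bases before the start): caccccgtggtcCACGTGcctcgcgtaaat
Ctsl (chr13:64370739-64370768, minus strand, motif 236 bases before the start): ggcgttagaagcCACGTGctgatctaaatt
Gla (chrX:134601182-134601211, minus strand, motif 194 bases before the start): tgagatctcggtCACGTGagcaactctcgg
Glb1 (chr9:114401018-114401047, plus strand, motif 48 bases before the start): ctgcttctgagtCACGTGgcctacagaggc
No CACGTG was present in the windows of Cd63, Ctsk, Galc, Gm2a, Grn or Smpd1, whose values are given further on. A match of these letters is a description of the sequence and not a measured binding site.

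The 48 genes took up between 5.17% and 6.44% of all gene counts in a sample. The share was 6.24% ± 0.18 (SD, n = 6) in CRE- KCs, 5.85% ± 0.22 (n = 6) in Tim4+ and 5.74% ± 0.27 (n = 6) in Tim4- CRE+ KCs. It was 5.53% ± 0.093 (n = 5) in CRE- AMs, 5.28% ± 0.097 (n = 5) in CD11b- and 5.72% ± 0.13 (n = 5) in CD11b+ CRE+ AMs. Proteases made up the largest part of it in each group, between 2.69% of all counts in CD11b- AMs and 3.67% in CRE- KCs. Per kilobase of merged exons, the highest levels in CRE- KCs were those of Ctss (2438 ± 195 CPM per kb, SD, n = 6), Ctsb (2314 ± 112), Ctsd (1997 ± 256) and Psap (1854 ± 177). Ctss and Ctsb differed by less than the SD of Ctss, and Ctsd and Psap by less than the SD of either. In CRE- AMs the order began with Ctsd (5705 ± 234 CPM per kb, SD, n = 5), Ctss (3437 ± 155), Psap (2856 ± 122) and Laptm5 (1291 ± 44.7), with gaps larger than the spread of each. In bulk samples, fewer cells of a type and less RNA per cell cannot be told apart.

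**Figure D1:**
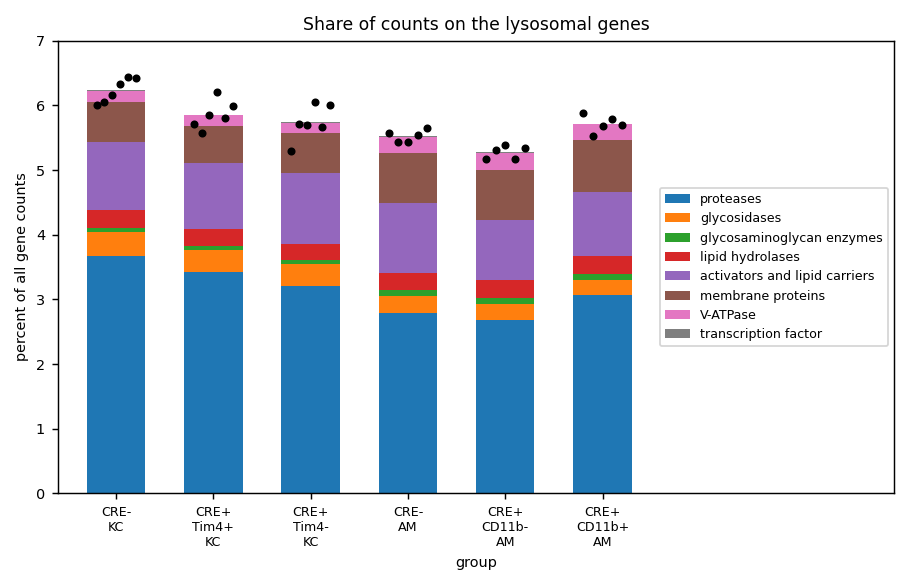
Share of all gene counts, in percent, that fell on the 48 lysosomal genes, by group. Stacked bars are group means by role and points are single samples; the samples lie between 5.17% and 6.44%, and proteases form the largest block in each group.

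The first comparison asked how the lysosomal genes differed between liver and lung macrophages with intact Zeb2. Nearly all of them differed: 19 were higher in CRE- KCs, 24 were higher in CRE- AMs, and Arsa, Gm2a, Lipa, Smpd1 and Tpp1 were not called at an adjusted p below 0.05. Of the 12145 genes tested, 33.3% were called higher and 29.9% lower in CRE- KCs, so that most genes of any kind differed between these cells. With an absolute log2 fold change above 1 also required, 8 of the genes were higher and 11 lower, against 20.9% and 12.4% of all genes. The median log2 fold change was -0.14 over the 48 genes and 0.03 over all genes tested.

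KCs carried more RNA of most proteases. Of the 13 proteases, 8 were higher in CRE- KCs, 4 were lower and Tpp1 was not called. Lgmn (chr12:102394084-102439813, minus strand), the asparagine-specific protease legumain that also processes cathepsins, ranged from 2294 to 2491 CPM in CRE- KCs with a median of 2365, and was at 149, 163, 165, 166 and 189 CPM in CRE- AMs. The groups were far apart, with a log2 difference of 3.86 ± 0.07 (SE, with adjusted p = 1.13e-14). Ctsb (chr14:63122462-63145923, plus strand), the cysteine protease cathepsin B, ranged from 13033 to 14740 CPM in CRE- KCs (median 14078) and was at 2510, 2522, 2542, 2572 and 2600 CPM in CRE- AMs, a log2 difference of 2.49 ± 0.05 (SE, with adjusted p = 3.65e-14). Ctsh, an aminopeptidase, ranged from 1406 to 1567 CPM (median 1529) in KCs against 506, 522, 531, 543 and 552 CPM in AMs, a log2 fold change of 1.54 ± 0.05. Ctsc, which activates granule serine proteases, ranged from 5383 to 6978 CPM (median 6654) against 2247, 2290, 2353, 2415 and 2516 CPM, a log2 fold change of 1.48 ± 0.07. For neither gene did a KC sample overlap an AM sample. Exons of other annotated genes overlap 12.8% of the exon bases of Ctsb, 34.4% of those of Ctsd and 39.9% of those of Arsb, and how reads there were counted was not given.

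Cathepsin K stood out on the side of AMs. Ctsk (chr3:95499256-95509362, plus strand), a protease best known for collagen breakdown by osteoclasts, was at 433, 446, 470, 481 and 482 CPM in CRE- AMs and between 0 and 0.541 CPM in CRE- KCs (median 0.287). The 6 KC libraries held 31 Ctsk reads in all and 2 of them none, against 48433 reads in the 5 AM libraries. The fitted log2 fold change of -10.83 depends at such counts on the small prior count added by edgeR. Ctsd (log2 fold change -1.49), Ctsz (-0.70) and Ctss (-0.47), the protease that trims the invariant chain of MHC class II, were also lower in KCs than in AMs.

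Among the enzymes that degrade glycosaminoglycans, Sgsh and Arsb lay at opposite ends. Sgsh (chr11:119343425-119355536, minus strand), the sulfamidase of heparan sulfate breakdown, ranged from 15.9 to 28.2 CPM in CRE- KCs with a median of 20.3 and was at 0, 0, 0, 0.0978 and 0.970 CPM in CRE- AMs. The AM values came from 0, 0, 0, 2 and 21 reads, while each CRE- KC library held at least 323. The log2 fold change of 6.58 ± 0.66 (adjusted p = 6.77e-07) therefore rests on very few AM reads. Arsb, which removes sulfate from dermatan sulfate, ranged from 13.4 to 32.7 CPM in CRE- KCs (median 15.7) and was at 60.6, 61.5, 61.9, 62.2 and 74.3 CPM in CRE- AMs (-1.62 ± 0.23, adjusted p = 1.90e-05). Gla, the alpha-galactosidase that degrades globotriaosylceramide, ranged from 13.7 to 20.6 CPM (median 16.4) in KCs against 53.8, 57.1, 57.4, 62.2 and 67.6 CPM in AMs (-1.81 ± 0.11). Man2b1 (1.22) and Glb1 (0.82) were higher in KCs, and Manba (-1.12), Gusb (-0.94), Ids (-0.81), Naglu (-0.67) and Neu1 (-0.65) were lower.

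Membrane proteins and the proton pump leaned toward AMs. All 5 V-ATPase genes were lower in CRE- KCs, by 0.12 for Atp6ap1 to 1.15 for Atp6v0d1 on the log2 scale. Of the 6 membrane proteins, Lamp2 (0.85) and Lamp1 (0.49) were higher in KCs and the other 4 were lower. Cd63 (chr10:128900989-128912822, plus strand), a tetraspanin of late endosomes and lysosomes, ranged from 2.16 to 10.1 CPM in CRE- KCs (median 4.31) and was at 59.2, 76.8, 78.0, 95.7 and 96.3 CPM in CRE- AMs, a log2 difference of -3.98 ± 0.31 (SE, with adjusted p = 4.06e-08). Npc1, which exports cholesterol from lysosomes, ranged from 38.1 to 54.9 CPM (median 42.0) against 124, 129, 133, 134 and 138 CPM (-1.54 ± 0.09), whereas its soluble partner Npc2 was higher in KCs (0.54). Grn, the precursor of the granulins, was also higher in KCs (1.3025).

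**Figure D2:**
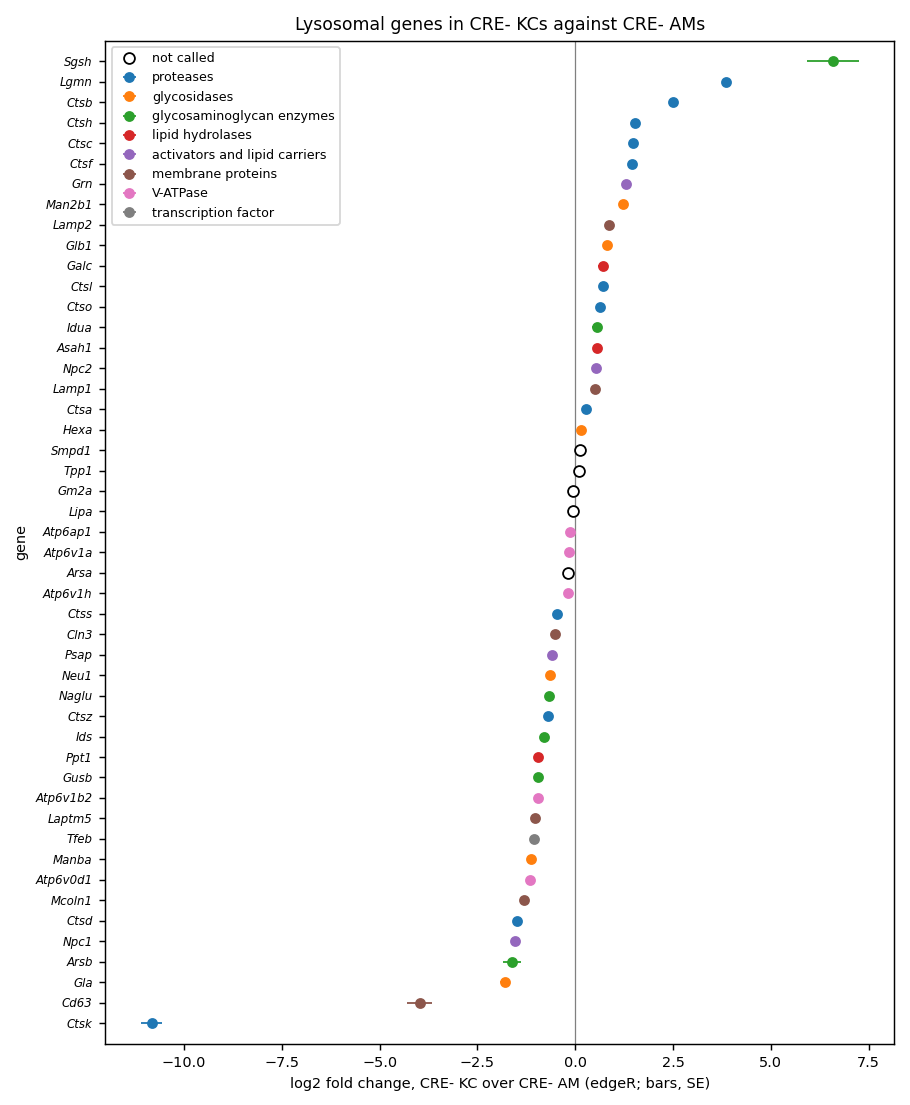
log2 fold change of each of the 48 lysosomal genes in CRE- KCs (n = 6) over CRE- AMs (n = 5), sorted by size, with bars for the SE and color for the role; open circles were not called. Sgsh (6.58) and Lgmn (3.86) head the list, Ctsk (-10.83) and Cd63 (-3.98) close it, and the 5 V-ATPase genes all lie left of 0.

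In the lung, the next comparisons asked which lysosomal genes differed between CRE+ and CRE- AMs. The CD11b+ AMs showed the wider change: 28 of the 48 genes were higher than in CRE- AMs, 10 were lower and 10 were not called. Among all 11573 genes tested, 22.8% were called higher and 20.5% lower. With an absolute log2 fold change above 1 also required, 8 were higher and 2 lower, against 9.57% and 5.68% of all genes. The median log2 fold change was 0.29 over the lysosomal genes and -0.01 over all genes. In CD11b- AMs 12 genes were higher and 11 lower, against 13.3% and 12.4% of all genes, and past an absolute log2 fold change of 1 there were 2 and 1, against 3.98% and 2.51%. Here the median was 0.02 over the lysosomal genes and 0.00 over all genes.

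The tetraspanin Cd63 rose in both CRE+ AM groups. From 59.2 to 96.3 CPM in CRE- AMs it went to 615, 706, 735, 757 and 821 CPM in CD11b- AMs and to 1136, 1180, 1184, 1245 and 1299 CPM in CD11b+ AMs. The 3 AM groups did not overlap, with log2 fold changes of 3.16 ± 0.11 (adjusted p = 3.18e-13) and 3.88 ± 0.12 (adjusted p = 1.89e-15) over CRE- AMs. Of the 50-base words of the Cd63 transcripts, 11.1% also occurred in transcripts of Cd63-ps, Cyp20a1 or Zmat1. Lamp1 (0.19 and 0.54) and Lamp2 (0.22 and 0.64) rose in both groups, while Laptm5 (-0.29 and -0.27) and Cln3 (-0.41 and -0.45) fell in both, the values being those of CD11b- and CD11b+ AMs. Mcoln1, a calcium channel of the lysosomal membrane, was called in neither.

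Of the 13 proteases, 10 were higher and 1 lower in CD11b+ AMs, and 3 were higher and 3 lower in CD11b- AMs. Ctsk was at 935, 1010, 1193, 1421 and 1486 CPM in CD11b- AMs and at 974, 980, 1045, 1136 and 1269 CPM in CD11b+ AMs. Both groups lay above every CRE- AM sample and overlapped each other, with log2 fold changes of 1.39 ± 0.11 and 1.21 ± 0.11. Lgmn was at 288, 289, 292, 292 and 306 CPM in CD11b- AMs and at 501, 523, 602, 604 and 613 CPM in CD11b+ AMs, a log2 fold change of 0.82 ± 0.07 and 1.76 ± 0.07 (adjusted p = 4.61e-08 and 1.44e-13). Even so, the highest AM sample stayed below the lowest KC sample, which was at 1954 CPM. Ctsb (0.78), Ctsl (0.95), Ctsz (0.51), Ctsh (0.50) and Ctsd (0.25) were among the proteases that rose in CD11b+ AMs and were not called in CD11b- AMs.

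Cathepsin F moved the other way. Ctsf (chr19:4855130-4860918, plus strand), a cysteine protease, was at 59.3, 61.9, 63.1, 70.2 and 71.2 CPM in CRE- AMs, at 15.8, 18.4, 19.9, 25.6 and 27.9 CPM in CD11b- AMs and at 9.98, 10.2, 10.7, 13.1 and 13.7 CPM in CD11b+ AMs. The 3 groups did not overlap, and Ctsf fell by 1.60 ± 0.14 and by 2.51 ± 0.15 on the log2 scale (adjusted p = 7.33e-08 and 3.80e-11). Ctss was at 4404, 4631, 4653, 4660 and 4992 CPM in CRE- AMs and at 2648, 2686, 2740, 2906 and 2991 CPM in CD11b- AMs, a decrease of 0.74 ± 0.07. In CD11b+ AMs it was at 3877, 3919, 3941, 4671 and 4841 CPM, overlapped the CRE- samples and was not called.

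Lipid hydrolases split within their group. Smpd1 (chr7:105554360-105558389, plus strand), the acid sphingomyelinase, was at 39.2, 46.7, 48.5, 53.8 and 59.6 CPM in CRE- AMs, at 63.7, 68.4, 69.0, 70.1 and 87.3 CPM in CD11b- AMs and at 175, 176, 179, 185 and 196 CPM in CD11b+ AMs. Each step separated the samples, and the log2 fold changes over CRE- AMs were 0.53 ± 0.10 (adjusted p = 5.38e-04) and 1.87 ± 0.10 (adjusted p = 1.19e-11). Galc (chr12:98202294-98259459, minus strand), which degrades galactosylceramide, was at 30.7, 36.1, 37.6, 40.0 and 50.6 CPM in CRE- AMs and at 7.07, 7.33, 8.72, 10.1 and 14.5 CPM in CD11b+ AMs. It fell there by 2.04 ± 0.19 (adjusted p = 2.54e-08), whereas the CD11b- samples, at 24.3, 25.9, 30.6, 35.9 and 37.0 CPM, overlapped the CRE- samples and were not called. Ppt1, a thioesterase that removes fatty acids from proteins, rose in both groups (0.24 and 1.17).

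Sgsh was read in CRE+ AMs at low counts. It was at 0.234, 0.286, 1.39, 1.42 and 1.68 CPM in CD11b- AMs and at 4.15, 4.496, 5.52, 6.04 and 6.42 CPM in CD11b+ AMs, from 79 to 110 reads in each CD11b+ library. The log2 fold change of the CD11b+ AMs over CRE- AMs was 4.57 ± 0.87 (adjusted p = 2.48e-04), and CD11b- AMs were not called. In the mouse annotation, exons of Card14 overlap 21.6% of the exon bases of Sgsh. Card14 itself was read 151 to 239 times in each CD11b+ AM library, 3 to 17 times in each CD11b- AM library and 0 times in each CRE- AM library, while it had at most 3 reads in any KC library, where Sgsh had at least 222. The part of Card14 in the Sgsh reads of CD11b+ AMs was not tested.

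Among the remaining enzymes, Gla was at 70.9, 73.6, 75.8, 78.9 and 80.1 CPM in CD11b- AMs (0.35 ± 0.09, adjusted p = 0.0051) and at 110, 116, 129, 139 and 147 CPM in CD11b+ AMs (log2 fold change 1.09). In the fit on all 33 samples the call of Gla in CD11b- AMs was lost at a fold change of the same size (0.36 ± 0.16, adjusted p = 0.133). Ids, a sulfatase of heparan and dermatan sulfate breakdown, went from 132, 144, 156, 170 and 170 CPM in CRE- AMs to 90.9, 108, 115, 125 and 127 CPM in CD11b- AMs and 93.8, 110, 119, 127 and 129 CPM in CD11b+ AMs. Both CRE+ groups lay below every CRE- sample (-0.45 ± 0.10 and -0.43 ± 0.10). Man2b1, a lysosomal alpha-mannosidase, went from 812, 856, 934, 956 and 1019 CPM in CRE- AMs to 644, 645, 657, 686 and 729 CPM in CD11b- AMs, without overlap (-0.45 ± 0.06), and fell by 0.34 in CD11b+ AMs. Cln3 was at 74.8, 82.8, 83.9, 86.4 and 88.9 CPM in CRE- AMs and at 53.8, 57.2, 60.7, 62.0 and 73.9 CPM in CD11b+ AMs, again without overlap. Psap, the precursor of the saposins, fell by 0.33 and 0.26. Grn rose by 0.25 and 0.83. Gusb was called in neither group.

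CD11b+ AMs also differed directly from CD11b- AMs. Of the 48 genes 30 were higher and 6 lower in CD11b+ AMs, against 19.8% and 16.6% of all genes, and 3 and 1 passed an absolute log2 fold change of 1, against 6.85% and 3.3%. The median log2 fold change was 0.24 over the lysosomal genes and 0.02 over all genes. The 3 larger increases were those of Sgsh (2.41 ± 0.76), Smpd1 (1.33 ± 0.10) and Idua (1.12 ± 0.08), followed by Ctsl (0.97 ± 0.09) and Lgmn (0.94 ± 0.07). Idua, which removes iduronic acid from heparan and dermatan sulfate, was at 44.7, 44.7, 49.2, 50.6 and 53.1 CPM in CD11b- AMs and at 98.6, 99.7, 104, 110 and 120 CPM in CD11b+ AMs. Ctsl was at 214, 233, 250, 254 and 317 CPM against 430, 492, 503, 532 and 540 CPM. Galc (-1.70 ± 0.19), Ctsf (-0.92 ± 0.15), Lipa (-0.32 ± 0.07), Manba (-0.32 ± 0.08) and Atp6v1b2 (-0.14 ± 0.05, adjusted p = 0.037) were lower. Lipa, the acid lipase of cholesteryl esters and triglycerides, was at 1258, 1353, 1442, 1471 and 1577 CPM in CD11b- AMs and at 1031, 1065, 1187, 1203 and 1239 CPM in CD11b+ AMs. Manba, a beta-mannosidase, was at 140, 150, 151, 153 and 163 CPM against 97.9, 116, 127, 134 and 135 CPM, and the pump subunit Atp6v1b2 at 970, 972, 986, 991 and 1015 CPM against 871, 874, 879, 945 and 960 CPM. None of these 3 genes overlapped between the groups, and the call of Atp6v1b2 was lost when any of 6 libraries was left out (CD11b- replicates 1, 3 and 5 and CD11b+ replicates 2, 3 and 4, adjusted p 0.056 to 0.092).

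Genes listed as markers of other cells moved with these groups. The summed level of 6 neutrophil markers was 36.1 to 60.3 CPM in CRE- AMs, 806 to 2426 CPM in CD11b- AMs and 8224 to 10462 CPM in CD11b+ AMs, with S100a8, S100a9 and Cxcr2 making up most of it and Retnlg at 1.59 to 4.73 CPM in CD11b+ AMs. A list of 8 lung epithelial markers summed to 115 to 153, 504 to 602 and 1329 to 1697 CPM in the same order. Of this list Epcam, Krt8 and Cdh1 were high and the surfactant gene Sftpc was at 17.6 to 30.7 CPM in CD11b+ AMs. By the study's flow cytometry, AMs that had deleted Zeb2 carried EpCam themselves. The epithelial sum therefore also counts a gene of AMs. The 7 monocyte markers summed to 6.03 to 12.6, 12.6 to 25.5 and 90.9 to 295 CPM, with Vcan at 0 in both CRE+ groups. The 8 AM markers summed to 19669 to 30187 CPM in CRE- AMs, 22606 to 31994 CPM in CD11b- AMs and 40407 to 55498 CPM in CD11b+ AMs, nearly all of it Chil3 (medians 25717, 24823 and 41599 CPM). Car4 and Itgax were also higher in every CD11b+ than in every CRE- sample, whereas the other 5 markers were lower there without overlap, by their medians Siglecf from 536 to 223, Ear2 from 429 to 117, Krt79 from 403 to 130, Pparg from 253 to 217 and Fabp1 from 202 to 21.2 CPM. The part of other cells in the changes of the lysosomal genes was not tested.

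**Figure D3:**
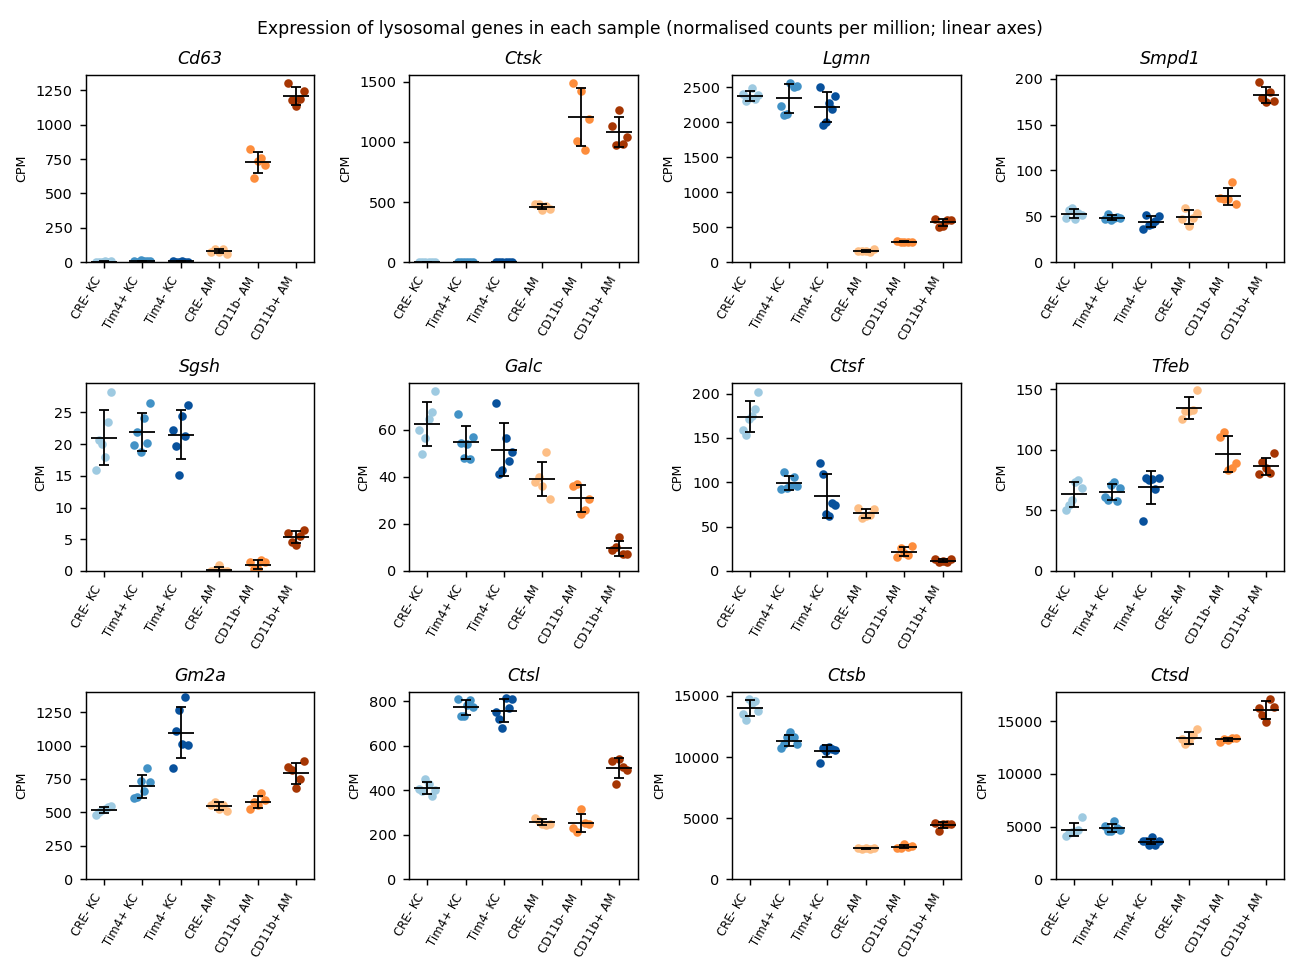
Expression of 12 lysosomal genes in each of the 33 samples, as normalized CPM on linear axes from 0; points are samples, horizontal bars group means and vertical bars the SD. Cd63 and Smpd1 step up across the AM groups, Ctsf steps down, Galc is lowest in CD11b+ AMs, Ctsk is near 0 in all KC samples, and Gm2a and Ctsl are higher in the CRE+ than in the CRE- KCs.

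In the liver, the lysosomal genes of CRE+ KCs changed less. In Tim4+ KCs 2 of the 47 genes tested were higher than in CRE- KCs and 9 were lower, while 36 were not called. Of all 12500 genes tested, 3.63% were called higher and 2.46% lower. In Tim4- KCs 3 were higher and 14 lower, against 12.2% and 13.2% of all genes. When only these groups were fitted, 3 were higher and 9 lower, against 11.2% of all genes in each direction. Ctsk was not tested in KCs because of its low counts. The log2 fold changes ran from -0.83 to 0.90 in Tim4+ KCs, where 1.94% and 0.376% of all genes were called past an absolute value of 1 in the higher and lower direction. In Tim4- KCs 1 gene passed that value in each direction, against 3.43% and 5.39% of all genes. The median log2 fold changes were -0.13 and -0.07 over the lysosomal genes and 0.00 and -0.03 over all genes.

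Gm2a and Ctsl rose in both KC groups. Gm2a (chr11:55098115-55113029, plus strand), the activator that presents ganglioside GM2 to hexosaminidase A, ranged from 478 to 550 CPM in CRE- KCs (median 521), from 606 to 832 CPM in Tim4+ KCs (median 694) and from 835 to 1359 CPM in Tim4- KCs (median 1059). The 3 groups did not overlap, and the log2 fold changes over CRE- KCs were 0.40 ± 0.10 (adjusted p = 0.015) and 1.06 ± 0.10 (adjusted p = 1.28e-07). Ctsl (chr13:64359337-64370890, minus strand), the cysteine protease cathepsin L, ranged from 376 to 450 CPM in CRE- KCs (median 404), from 733 to 809 CPM in Tim4+ KCs (median 780) and from 681 to 813 CPM in Tim4- KCs (median 761). It rose by 0.90 ± 0.06 and 0.87 ± 0.06 (adjusted p = 4.57e-09 and 2.08e-09), and the 2 CRE+ groups overlapped. Exons of the annotated genes Gm47123 and Gm49230 overlap 26.8% of the Ctsl exon bases. Arsb was the further gene called higher in Tim4- KCs (0.79), with samples that overlapped those of CRE- KCs.

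The decreases were small apart from Ctsf. Ctsf ranged from 153 to 202 CPM in CRE- KCs (median 173), from 92.0 to 112 CPM in Tim4+ KCs (median 95.8) and from 62.0 to 122 CPM in Tim4- KCs (median 75.6). It fell by 0.83 ± 0.14 (adjusted p = 5.71e-04) and by 1.05 ± 0.14 (adjusted p = 1.31e-05), with no overlap with the CRE- samples. Ctsb ranged from 10733 to 12041 CPM in Tim4+ KCs (median 11334) and from 9539 to 10838 CPM in Tim4- KCs (median 10607), below all CRE- samples, and fell by 0.32 ± 0.05 and 0.43 ± 0.05. Glb1, the beta-galactosidase, ranged from 111 to 130 CPM in CRE- KCs (median 123), from 86.1 to 108 CPM in Tim4+ KCs and from 81.9 to 101 CPM in Tim4- KCs (-0.34 ± 0.07 and -0.37 ± 0.07). Hexa, a subunit of hexosaminidase A, ranged from 1147 to 1285 CPM in CRE- KCs and from 889 to 1030 CPM in Tim4+ KCs (-0.36 ± 0.06). Grn ranged from 3739 to 4280 CPM in CRE- KCs and from 3032 to 3470 CPM in Tim4+ KCs (-0.29 ± 0.07).

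Ctsa, a carboxypeptidase that stabilizes beta-galactosidase and neuraminidase, ranged from 1338 to 1608 CPM in CRE- KCs and from 1064 to 1206 CPM in Tim4- KCs (-0.39 ± 0.06, adjusted p = 5.93e-05). Ctsd, the aspartic protease cathepsin D, ranged from 4154 to 5870 CPM in CRE- KCs, from 4563 to 5515 CPM in Tim4+ KCs and from 3275 to 4016 CPM in Tim4- KCs. It was lower in Tim4- KCs than in either of the other groups (-0.40 ± 0.08 against CRE-, -0.44 ± 0.08 against Tim4+ KCs), without overlap. The decreases in Tim4- KCs also took in Asah1, Atp6ap1, Ctso, Grn, Hexa, Idua, Lamp1, Smpd1 and Tpp1, with log2 fold changes of -0.35 to -0.16. Without replicate 6 of the CRE- KCs the count of lower genes in Tim4- KCs was 10. Cd63, which rose in AMs, ranged from 2.16 to 10.1 CPM in CRE-, from 4.05 to 14.1 CPM in Tim4+ and from 3.37 to 10.5 CPM in Tim4- KCs, and was not called.

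Tim4- and Tim4+ KCs differed from each other at 3 of the 47 genes without regard to replicate number, and with the replicate number as a block, which pairs these samples, 3 were higher and 2 lower in Tim4- KCs. Without the block, edgeR called Gm2a (0.66 ± 0.10, adjusted p = 1.56e-04) and Ctss (0.30) higher in Tim4- KCs and Ctsd lower (adjusted p = 7.68e-04). Gm2a and Ctsd kept their calls with the block. Of all genes 3.84% were called higher and 7.62% lower, and 0.44% and 5.01% past an absolute log2 fold change of 1, while the lysosomal genes ran from -0.47 to 0.66. The median log2 fold change was -0.02 over the lysosomal genes and 0.01 over all genes. Replicate 1 of the Tim4- KCs was the shallowest library, with 9837240 gene counts against 17454078 to 24332306 in the other 32, and lay apart from its group for 13 of the 48 genes. Without it 4 genes were higher and 4 lower in Tim4- than in Tim4+ KCs, Gm2a by 0.72 and Ctsd by -0.45 (log2), and against CRE- KCs 4 were higher and 16 lower.

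The Tim4- sort showed in Timd4, the gene of Tim4, at 664 to 759 CPM in CRE-, 281 to 438 CPM in Tim4+ and 0.229 to 8.19 CPM in Tim4- KCs. Clec4f, which defines KCs, was at 10329 to 12006, 4086 to 5192 and 2677 to 4062 CPM in the same order, and the 8 KC markers summed to 36307 to 39616, 26972 to 31455 and 20314 to 26698 CPM. By the study's methods the Cre cassette was inserted in the Clec4f gene itself, after its stop codon. Its effect on the Clec4f counts, which enter the KC sum, was not tested. In the order CRE-, Tim4+ and Tim4- KCs, the 7 monocyte markers summed to 83.8 to 309, 112 to 370 and 360 to 867 CPM. Their median sums were 211, 240 and 617 CPM, and Vcan alone was at 0 throughout both CRE+ groups. In the study's single-cell data, KCs without Siglecf and Timd4 that expressed Cx3cr1 and Ccr2, both on this list, were taken as putative monocyte-derived KCs. The 7 markers of liver endothelium summed to 595 to 1671, 976 to 2764 and 359 to 509 CPM. The 6 B cell markers summed to 49.0 to 95.5, 103 to 146 and 154 to 284 CPM. The 5 eosinophil markers summed to 48.9 to 66.2, 319 to 780 and 406 to 943 CPM, with Epx at 0 in all KC samples and Prg2 in all CRE- KC samples. These lists hold Ms4a1, the gene of CD20, and Siglecf. By the study's flow cytometry, KCs that had deleted Zeb2 carried CD20 and SiglecF themselves. The median of Siglecf was 4.89 CPM in CRE-, 168 CPM in Tim4+ and 264 CPM in Tim4- KCs. The medians of the eosinophil sum were 58.7, 457 and 709 CPM, so that Siglecf made up only a part of its rise. The part of other cells in the KC results was not tested either.

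**Figure D4:**
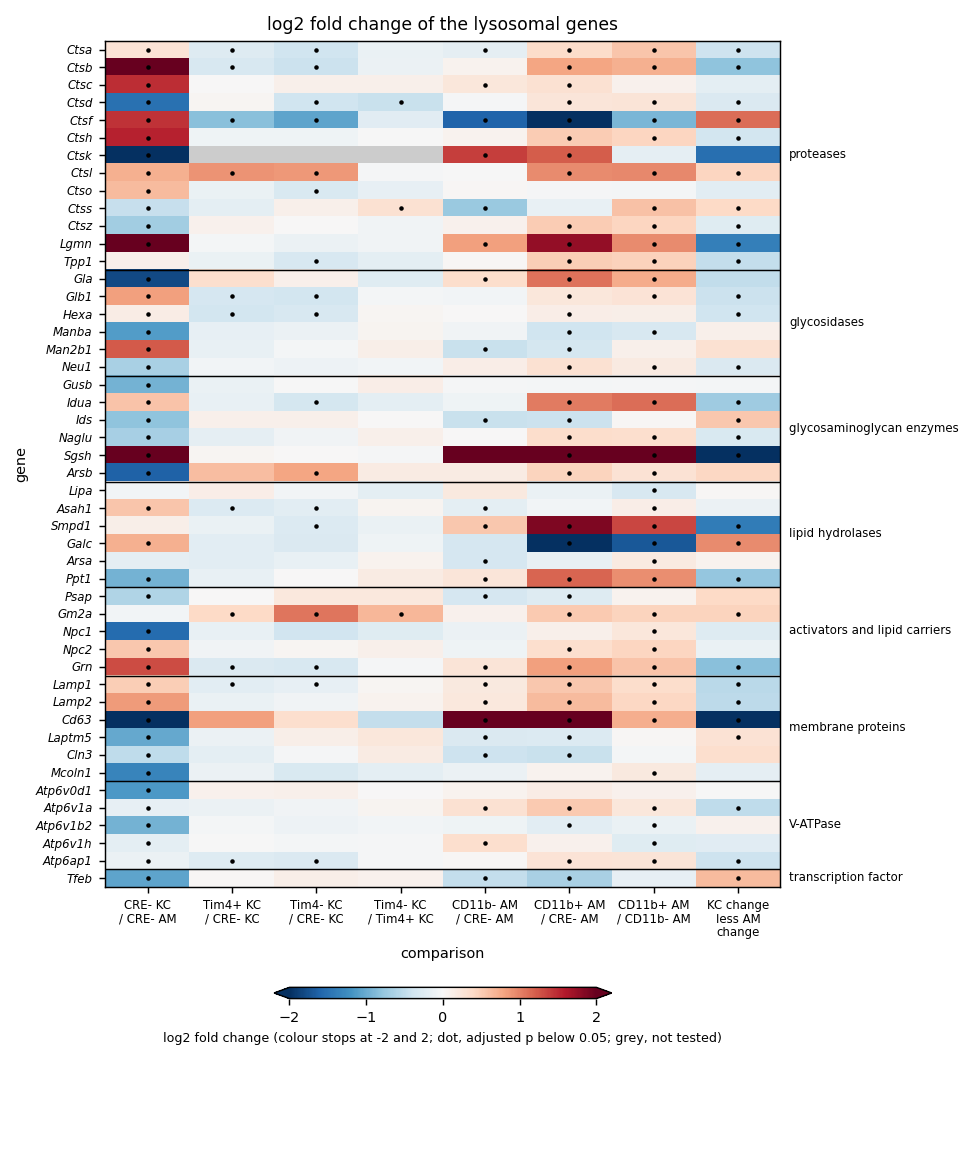
log2 fold changes of the 48 lysosomal genes (rows, by role) in the 8 comparisons (columns); red is higher and blue lower in the first-named group, color stops at -2 and 2, dots mark an adjusted p below 0.05 and grey marks genes not tested. In the columns that compare KC groups the larger called changes are those of Ctsl, Gm2a and Ctsf, and the column of CD11b+ over CRE- AMs holds 28 genes called higher.

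The last comparison asked whether the change in CRE+ cells differed between the tissues. The mean change of the CRE+ KC groups less the mean change of the CRE+ AM groups was above 0 for 8 genes and below 0 for 21 genes, against 10% and 9.52% of the 13294 genes tested, and 1 and 4 passed an absolute value of 1, against 3.5% and 4.65%. The median was -0.23 over the lysosomal genes and 0.01 over all genes. Values below 0 were led by Sgsh (-3.31 ± 0.61, adjusted p = 1.07e-04), Cd63 (-2.96 ± 0.34, adjusted p = 5.43e-08), Smpd1 (-1.39 ± 0.12, adjusted p = 5.28e-11), Lgmn (-1.36 ± 0.09, adjusted p = 1.54e-13) and Grn (-0.83 ± 0.08, adjusted p = 6.48e-10). The Sgsh value carries the limits given above for its AM reads.

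Values above 0 were led by Ctsf (1.12 ± 0.18, adjusted p = 1.40e-05), which fell in both tissues and less so in KCs, and by Galc (0.95 ± 0.20), Tfeb (0.64 ± 0.15), Ids (0.55 ± 0.14) and Gm2a (0.44 ± 0.11). Tim4- KCs and CD11b+ AMs, whose comparisons share no samples, set 11 genes in opposite directions: Atp6ap1, Ctsa, Ctsb, Ctsd, Glb1, Grn, Hexa, Idua, Lamp1, Smpd1 and Tpp1 were lower in Tim4- KCs and higher in CD11b+ AMs than in the CRE- cells of their tissue. They were 78.6% of the 14 genes lower in Tim4- KCs and 39.3% of the 28 genes higher in CD11b+ AMs. Of the 47 lysosomal genes tested in both tissues they were 23.4%, and of all 11022 genes tested in both 318 (2.89%) were called in these directions. Arsb, Ctsl and Gm2a were higher in both groups, and Ctsf was lower in both.

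**Figure D5:**
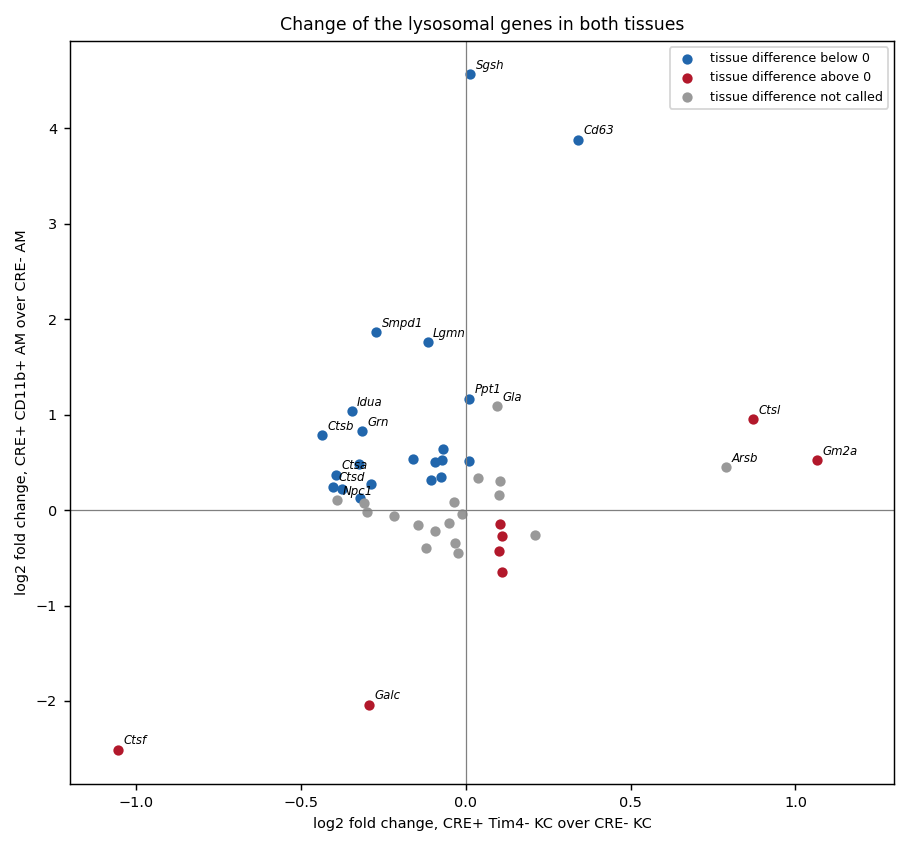
log2 fold change of the lysosomal genes in CRE+ Tim4- KCs over CRE- KCs (horizontal) against CRE+ CD11b+ AMs over CRE- AMs (vertical); each point is a gene, colored by whether its tissue difference was called, and the axes have different scales. The 11 genes called in opposite directions, such as Smpd1 and Ctsb, lie at the upper left, and Ctsf, called lower in both tissues, lies at the far lower left.

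A second list of lysosome genes outside the 48 (other hydrolases, transporters, sorting receptors, pump subunits and regulators) was tested in the same fits. In CRE- KCs against CRE- AMs 20 of 75 tested were higher (26.7%, against 33.3% of all genes) and 36 lower (48%, against 29.9%). In CD11b+ against CRE- AMs 31 of 73 were higher (42.5%, against 22.8%) and 19 lower (26.0%, against 20.5%). In Tim4- against CRE- KCs 13 of 77 were higher (16.9%, against 12.2%) and 17 lower (22.1%, against 13.2%). Igf2r, the cation-independent mannose 6-phosphate receptor that carries new hydrolases to lysosomes, was at 0 in 4 CRE- AM samples and at 0.0448 CPM in the other, at 0.736, 4.37, 5.71, 8.04 and 11.5 CPM in CD11b- AMs and at 44.3, 45.3, 61.3, 61.5 and 65.1 CPM in CD11b+ AMs. In KCs it ranged from 24.01 to 43.3 CPM in CRE- and from 5.62 to 22.9 CPM in Tim4- samples, where it fell by 1.31 ± 0.29. Gpnmb, a glycoprotein of macrophages under lysosomal stress, was at 470 to 589 CPM in CRE- AMs. It was at 1332 to 1518 CPM in CD11b- AMs and 2623 to 3307 CPM in CD11b+ AMs (log2 fold changes 1.44 and 2.51). In KCs Gpnmb was called higher as well, by 2.15 ± 0.59 in Tim4+ and 1.81 ± 0.59 in Tim4- samples (adjusted p = 0.032 and 0.028, edgeR). These rises started from a far lower level, as the log2 fold change of CRE- KCs over CRE- AMs was -8.14 ± 0.45. The hydrolase gene Ctse had the largest called increases of this list in KCs (3.04 ± 0.51 in Tim4+ and 3.91 ± 0.53 in Tim4- samples).

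Sort1, which encodes the sorting receptor sortilin, ranged from 2.87 to 8.80 CPM in CRE- KCs, from 23.6 to 45.2 CPM in Tim4+ KCs and from 24.4 to 35.4 CPM in Tim4- KCs (2.63 ± 0.22 and 2.58 ± 0.22). In AMs it was far higher and went down, from 1307 to 1561 CPM in CRE- to 799 to 1047 CPM in CD11b+ samples, and its tissue difference was 3.09 ± 0.20 (adjusted p = 2.46e-13). The pump subunit Atp6v0a1 rose by 1.23 ± 0.09 from CD11b- to CD11b+ AMs, and Acp5, the tartrate-resistant acid phosphatase, fell by 1.42 ± 0.09 in CD11b+ AMs and by 0.88 ± 0.16 in Tim4+ KCs against CRE- cells.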

How the data were processed

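RNA of 33 sorted KC and AM samples was sequenced by the authors. Per the labels and methods, reads were trimmed with Trimmomatic 0.35, checked with FastQC 0.11.4, mapped to mm10 with TopHat2 2.1.0 and counted per gene with HTSeq, with SAMtools 0.1.18 also named. The deposited values are raw counts per gene symbol. The gene annotation and strand setting were not given in the sources used here. Each file also held 5 tally rows (such as reads without a feature), which were left out of all totals. Of all reads tallied, those without a feature were 4.522% to 8.899% and ambiguous ones 1.19% to 1.391%. Totals were 9837240 to 24332306 gene counts per sample, and no replicate pair of the 75 compared looked like the same library.

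Genes were filtered by filterByExpr, scaled by TMM and tested with edgeR 4.0.16 (quasi-likelihood, R 4.3.3), with p-values adjusted by Benjamini-Hochberg over all genes of a fit. A gene was called at an adjusted p below 0.05. CRE- KC against CRE- AM was fitted on the 11 CRE- samples, KC comparisons on 18, AM comparisons on 15 and the tissue difference on all 33. CPM used TMM factors over all samples. Where a value in CPM is given per kb, the length is that of merged GENCODE M21 exons (GRCm38, the mm10 assembly). limma 3.58.1 (voom), DESeq2 1.42.0 and other settings served as alternatives. The code was tested on simulated counts. The labels do not say that samples of a group came from separate mice, so p-values measure only the spread between these samples. Replicate numbers are shared between groups. Deviations of same-numbered samples correlated at 0.184 to 0.332 between Tim4- and Tim4+ KCs, where the numbers were taken to pair the samples, and at or below 0.1 for at least 1 pair in every other comparison.

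Members and lists were chosen with earlier results of these data known. Per-sample values were given for up to 5 genes higher and 5 lower per comparison, those with the larger fold changes among called genes whose samples did not overlap, and for Zeb2 and Tfeb. Other members were named with fold changes, and up to 3 further lysosome genes higher and 3 lower per comparison by the same size rule.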

Additional observations from a re-analysis of the deposited data

Results flagged for a closer look

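Single samples that lay apart from the rest of their group, by Dixon's test of the gap to the nearest sample, were found in 25 of 288 gene and group pairs, where chance gives about 1 in 20 groups. Of these, 13 were in replicate 1 of the CRE+ Tim4- KCs, the shallowest library. In CPM it had Psap at 2695 (the others 5970 to 7126), Grn at 2571, Ctsb at 9539, Laptm5 at 2073, Atp6ap1 at 473, Gusb at 216, Arsa at 51.6, Tfeb at 41.3 and Cln3 at 36.3, all low, and Lamp2 at 1760, Lipa at 1478, Ctso at 182 and Atp6v1h at 178, all high. In other Tim4- KC samples Hexa was at 851 CPM in replicate 5 and Ctsk at 0.648 CPM in replicate 4. Replicate 1 of the Tim4+ KCs had Idua at 80.0 CPM and Naglu at 103 CPM, and replicate 6 of the CRE- KCs had Ctsd at 5870 CPM.

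In AMs, CD11b- samples had Lgmn at 306 CPM and Neu1 at 315 CPM (replicate 1), Ctsc at 3005 CPM (replicate 3) and Ctsh at 605 CPM (replicate 5). Ctsb was at 3963 CPM in CD11b+ replicate 2. In CRE- AMs, Sgsh was at 0.970 CPM in replicate 3 and Arsb at 74.3 CPM in replicate 4.

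For 29 genes the change in CRE+ KCs less the change in CRE+ AMs was called by edgeR, and these are log2 values. Below 0 were Sgsh -3.31, Cd63 -2.96, Smpd1 -1.39, Lgmn -1.36, Grn -0.83, Ctsb -0.80, Ppt1 -0.77, Idua -0.71, Lamp1 -0.54, Lamp2 -0.52, Atp6v1a -0.50, Tpp1 -0.47, Glb1 -0.43, Ctsa -0.41, Atp6ap1 -0.41, Hexa -0.40, Ctsh -0.37, Naglu -0.30, Neu1 -0.29, Ctsd -0.29 and Ctsz -0.24. Above 0 were Ctsf 1.12, Galc 0.95, Tfeb 0.64, Ids 0.55, Gm2a 0.44, Ctsl 0.42, Ctss 0.41 and Laptm5 0.29.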

How the results depend on the processing

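Alternatives were run for the counts of lysosomal genes called and for 66 log2 fold changes of members whose per-sample values were given, and none of these changed direction. Values of Zeb2, of genes outside the 48 and of other members were not rerun. Requiring an absolute log2 fold change above 1 left 8 higher and 11 lower lysosomal genes in CRE- KC against CRE- AM, 0 and 0 in Tim4+ KC, 1 and 1 in Tim4- KC, 0 and 0 in Tim4- against Tim4+ KC, 2 and 1 in CD11b- AM, 8 and 2 in CD11b+ AM, 3 and 1 in CD11b+ against CD11b- AM and 1 and 4 for the tissue difference. Genes lower in Tim4- than in Tim4+ KCs numbered 2 in place of 1 under limma-voom, DESeq2, the replicate block and the fit on all 33 samples, and genes lower in Tim4- than in CRE- KCs numbered 9 in place of 14 when only these groups were fitted; the cause was not tested.

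Leaving out each library in turn gave, higher and lower, 18 to 19 and 21 to 23 genes for CRE- KC against CRE- AM, 2 to 3 and 7 to 9 for Tim4+ KC, 3 to 4 and 10 to 16 for Tim4- KC, 1 to 4 and 1 to 4 for Tim4- against Tim4+ KC, 11 to 13 and 10 to 11 for CD11b- AM, 26 to 28 and 10 to 12 for CD11b+ AM, 26 to 30 and 5 to 6 for CD11b+ against CD11b- AM, and 8 to 11 and 20 to 23 for the tissue difference. With the replicate block, Tim4- against Tim4+ KCs had 3 genes higher and 2 lower, and no other count moved by over 1.5 times. In CD11b+ and CD11b- AMs 5 of 5 samples correlated best with their own number, a hint of pairing from the data and not the design. Of 1461 single-gene values 8 lost their call: Atp6v1b2 in CD11b+ against CD11b- AMs 7 times, and Gla in CD11b- AMs with all 33 samples (0.36 ± 0.16, adjusted p = 0.133). Low counts limit the values of Ctsk in KCs and of Sgsh in AMs.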
